A study of Mus musculus with 16 samples.

Results

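A set of 10 calcium channel and calcium handling genes was followed in embryonic mouse hearts that had lost alleles of Ing4 and Ing5. They were chosen by symbol and matched through their Entrez identifiers, and are 10 of the 27179 genes in the count table. The list holds 5 pore-forming subunits of voltage-gated calcium channels (Cacna1c, Cacna1d, Cacna1s, Cacna1g and Cacna1h), the accessory channel subunit Cacnb2, 3 genes of the internal calcium store (Ryr2, Atp2a2 and Pln) and the membrane exchanger Slc8a1. All 10 passed the filter on low counts, and their lowest count in any library was 49 reads, for Cacna1g.

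Each heartbeat starts with calcium entering through voltage-gated channels, which makes the ryanodine receptor release more calcium from the sarcoplasmic reticulum. The calcium ATPase then pumps calcium back into this store, and the sodium/calcium exchanger moves it out of the cell. In the early embryonic heart the first regular beats depend on these channels and on the exchanger before the store is fully built.

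RNA-seq was made from whole hearts at embryonic day 10.5, with 4 libraries for each of 4 genotypes. The first genotype, Ing4+/- Ing5-/-, lacks 1 allele of Ing4 and both alleles of Ing5, and the second, Ing4+/+ Ing5-/-, lacks both Ing5 alleles only. The third, Ing4+/- Ing5+/+, lacks 1 Ing4 allele only, and Ing4+/+ Ing5+/+ is wild type. ING4 and ING5 are chromatin proteins that read a histone mark of active genes and belong to histone acetyltransferase complexes. The sources used here do not say which exons the mutant alleles lack, or whether a library came from 1 embryo or from several. The p-values therefore measure the spread between libraries, called hearts below. Embryos of 7 litters were used, and litters that gave an Ing4+/+ Ing5-/- heart gave no wild-type one. The comparisons share their groups (Ing4+/- Ing5-/- stands in 3 of them and wild type in 3), so they are not independent of each other.

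Library totals lay between 19753100 and 35664331 reads. Ing5 itself averaged 21.01 counts-per-million (CPM, scaled to TMM-adjusted library totals) in Ing4+/- Ing5-/- hearts and 33.5 CPM in wild-type hearts, so reads remained on the gene. It had 29.3, 23.7, 18.5 and 22.4 CPM in Ing4+/+ Ing5-/- hearts, of which replicate 1 lay above wild-type replicate 3 at 28.9 CPM. Ing4 averaged 34.3 CPM in Ing4+/- Ing5-/- hearts and 39.5 CPM in wild-type hearts (log2 fold change -0.20 ± 0.12 SE, edgeR adjusted p = 0.556). The 20 cardiomyocyte markers were detected in every heart and summed to between 38111 and 44794 CPM in Ing4+/- Ing5-/- hearts, between 28911 and 45996 CPM in Ing4+/+ Ing5-/- hearts, between 39749 and 42235 CPM in Ing4+/- Ing5+/+ hearts and between 43223 and 47827 CPM in wild-type hearts. Ing4+/- Ing5+/+ replicate 4 and Ing4+/+ Ing5-/- replicate 1 lay farthest from the centre on the first 2 principal components, the second of these with the lowest cardiomyocyte sum. Ing4+/- Ing5-/- replicate 2 had the most erythroid marker RNA, a sum of 49563 CPM. These 3 libraries were left out together as an alternative, and were named from an account of the whole series. Ing4+/- Ing5-/- replicate 2 ranked 5 in distance from the centre, after wild-type replicates 2 and 3, which were kept. In whole hearts, fewer cells of a type and less RNA per cell cannot be told apart.

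Levels between genes were compared as reads per kilobase of the deposited gene length and per library size (RPKM) over all 16 hearts. The store pump Atp2a2 stood first at 433 ± 39.1 RPKM (SD), followed by Pln at 180 ± 35.0 RPKM and Slc8a1 at 91.7 ± 10.4 RPKM. Cacna1h at 28.2 ± 2.38 RPKM and Ryr2 at 24.1 ± 2.83 RPKM came next. Cacna1c at 13.8 ± 0.936 RPKM lay beside its partner Cacnb2 at 12.8 ± 1.14 RPKM, above Cacna1d at 4.04 ± 0.795 RPKM. Cacna1s at 1.12 ± 0.407 RPKM and Cacna1g at 0.513 ± 0.153 RPKM closed the list. The order of the means was the same in all 4 genotypes. The ranges of neighbours overlapped between Pln and Slc8a1, Cacna1h and Ryr2, Cacna1c and Cacnb2, and Cacna1s and Cacna1g, and did not overlap between the other neighbours.

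**Figure D1:**
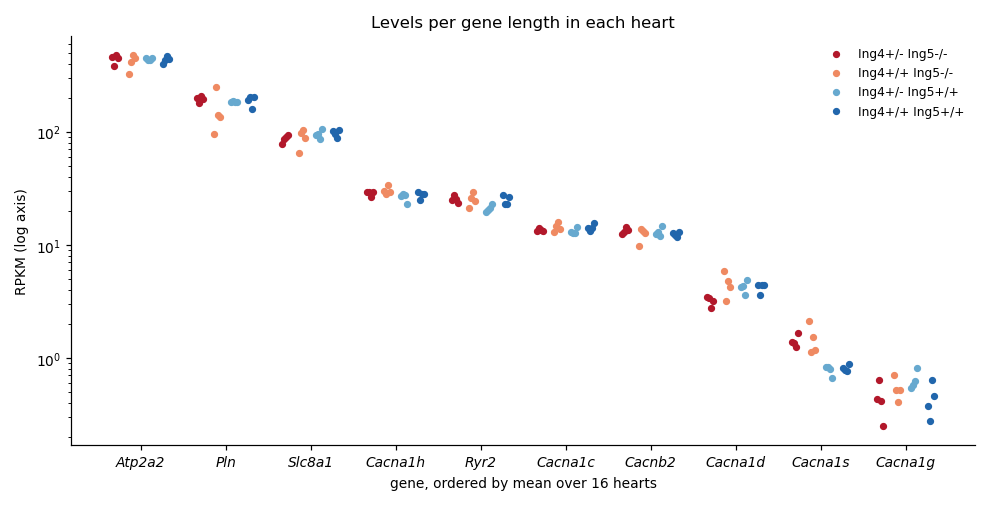
Level of each calcium gene in each of the 16 hearts, in RPKM on a log axis, with the genes ordered by mean level and the hearts coloured by genotype. Atp2a2 averaged 433 RPKM and Cacna1g 0.513 RPKM, and the Ing5-/- hearts lie above the Ing5+/+ hearts for Cacna1s.

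Among the 5 pore subunits the T-type gene Cacna1h made up 59.1% ± 2.10 of the summed RPKM and the L-type gene Cacna1c 29.0% ± 1.86 (SD, n = 16). Cacna1d held 8.47% ± 1.501, Cacna1s 2.34% and Cacna1g 1.08%. The 2 T-type genes together had 1.52 ± 0.114 times the RPKM of the 3 L-type genes in the same heart.

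The 10 genes were chosen with earlier results of these data known, so the counts below describe the list and do not test it. Across the genotypes, 1 of the 10 genes was called and it was Cacna1s. It was higher in Ing4+/- Ing5-/- hearts than in wild-type hearts and than in Ing4+/- Ing5+/+ hearts by edgeR's quasi-likelihood test at an adjusted p under 0.05. Against wild type, 0.843% of the 15785 genes tested were called in either direction, and 0.684% were called higher. In the comparison with Ing4+/- Ing5+/+ hearts, 1.1% of all genes were called and 0.722% were called higher. None of the 10 genes was called between Ing4+/- Ing5-/- and Ing4+/+ Ing5-/- hearts (0.00634% of all genes called, and 1 of the 10 at an unadjusted p under 0.05, against 6.74% of all genes). None was called in Ing4+/+ Ing5-/- against wild-type hearts, where 0% of all genes were called and 1 of the 10 had an unadjusted p under 0.05, against 9.77% of all genes. Ing4+/- Ing5+/+ against wild-type hearts gave none either, with 0% of all genes called and 1 of the 10 at an unadjusted p under 0.05, against 4.74% of all genes. The interaction of the 2 losses called 0 of the 10 and 0% of all genes, with 2 of the 10 at an unadjusted p under 0.05, against 6.03% of all genes. In these 4 comparisons the DESeq2 Wald test called none of the 10, except for Cacna1s in Ing4+/+ Ing5-/- against wild-type hearts.

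Groups whose 4 hearts did not overlap were counted too. Against wild type, 2 of the 10 genes separated the Ing4+/- Ing5-/- hearts completely, Cacna1s above and Cacna1d below, while 10.2% of all genes did so in either direction. Against Ing4+/- Ing5+/+ hearts, Cacna1s and Ryr2 lay above and Cacna1d below, 3 of the 10 where 10.1% of all genes separated. Between Ing4+/+ Ing5-/- and wild-type hearts Cacna1s alone separated, beside 4.75% of all genes. No member separated Ing4+/- Ing5-/- from Ing4+/+ Ing5-/- hearts (2.99% of all genes) or Ing4+/- Ing5+/+ from wild-type hearts (3.78% of all genes).

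**Figure D2:**
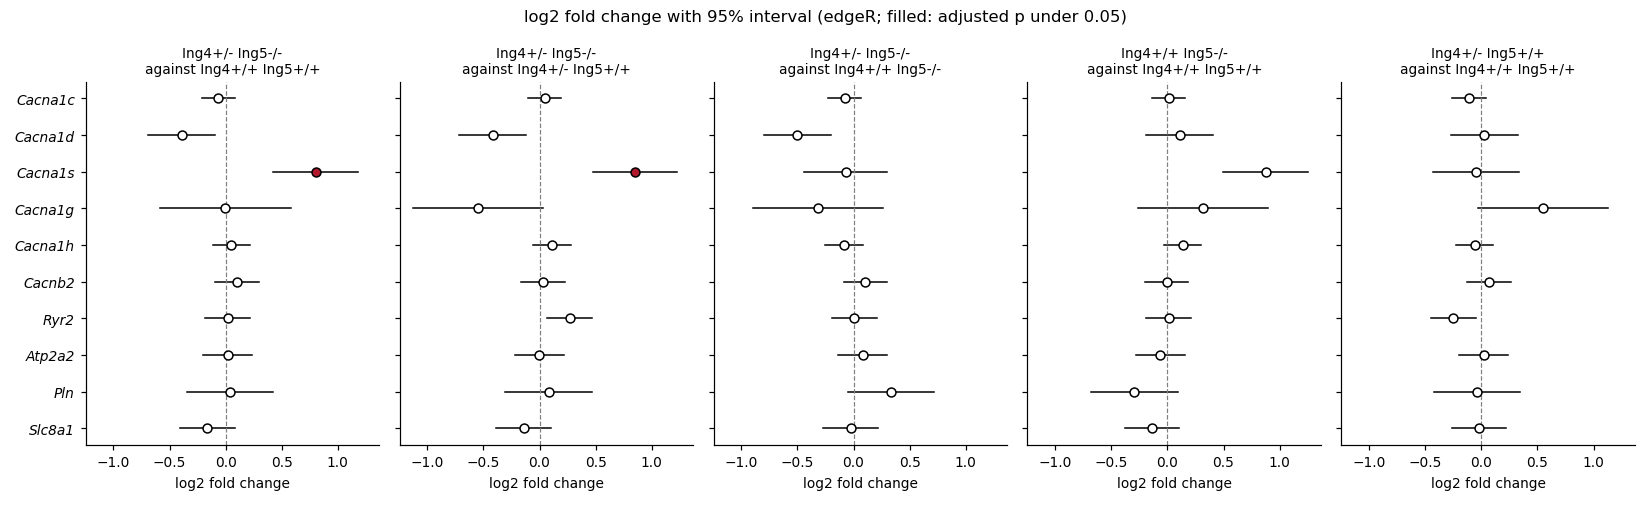
Log2 fold changes of the 10 calcium genes in 5 genotype comparisons (edgeR, 4 hearts per genotype), with bars for the 95% interval and filled points for an adjusted p under 0.05. Only Cacna1s against wild type and against Ing4+/- Ing5+/+ hearts is filled, at 0.80 and 0.85.

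Cacna1s encodes the L-type pore that senses voltage for the ryanodine receptor of skeletal muscle, and in the mature heart it is a minor transcript. It lies at chr1:136052806-136119822 (GRCm38, Entrez 12292), on the chromosome that also holds Ing5, 42.2 Mb away. The RefSeq bases upstream of its start are shown because it is the member whose level differed by genotype, together with those of Atp2a1, the fast-twitch skeletal muscle calcium pump, which is the only called gene of the other calcium pathway lists against wild type. Capitals mark matches to 4 motifs searched on both strands: the E-box CANNTG, the MCAT-type CATTCC, the GATA-type AGATAA and a MEF2-type motif.
Cacna1s, chr1:136052561-136052749, plus strand: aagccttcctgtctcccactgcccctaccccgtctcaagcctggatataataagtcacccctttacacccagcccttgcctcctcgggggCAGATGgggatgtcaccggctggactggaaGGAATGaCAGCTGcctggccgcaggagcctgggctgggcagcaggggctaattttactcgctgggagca
Atp2a1, chr7:126463109-126463323, minus strand: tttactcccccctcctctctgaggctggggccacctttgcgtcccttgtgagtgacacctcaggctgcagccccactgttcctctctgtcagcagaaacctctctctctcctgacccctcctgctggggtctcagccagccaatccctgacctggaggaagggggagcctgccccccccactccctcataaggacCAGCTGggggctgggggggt
The 189 bases of Cacna1s held 2 E-boxes and, between them, 1 MCAT-type match read on the opposite strand. The 215 bases of Atp2a1 held 1 E-box near their end. Of 27025 RefSeq promoter windows of 189 bases, 55.7% held an E-box and 9.58% an MCAT-type match, and 60.7% of windows of 215 bases held an E-box. Neither sequence held a MEF2-type match, which 2.36% of the shorter windows did, or a GATA-type match, which 7.44% did. These are matches of letters and not measured binding, and other forms of the motifs were not searched.

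Cacna1s had 8.71, 8.55, 7.80 and 10.4 CPM in the Ing4+/- Ing5-/- hearts. The Ing4+/+ Ing5-/- hearts had 13.3, 7.01, 9.55 and 7.35 CPM. Ing4+/- Ing5+/+ hearts had 5.22, 5.21, 5.00 and 4.18 CPM, and wild-type hearts had 5.10, 4.90, 4.81 and 5.50 CPM. All 8 hearts labelled Ing5-/- lay above all 8 hearts with both Ing5 alleles. The Ing4+/+ Ing5-/- hearts were the most spread, and their replicate 1, which also had the highest Ing5 CPM of the Ing5-/- hearts, was the highest of all. The raw counts behind these values lay between 96 and 410 reads.

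Cacna1s rose 1.75-fold in Ing4+/- Ing5-/- hearts over wild type (log2 fold change 0.80 ± 0.18 SE, 95% interval 0.43 to 1.18, edgeR adjusted p = 0.0416, higher in 4 of 4 hearts). Over Ing4+/- Ing5+/+ hearts it rose 1.80-fold (0.85 ± 0.18 SE, 0.47 to 1.23, adjusted p = 0.0273). The Ing4+/+ Ing5-/- hearts had a difference of like size from wild type, 0.87 ± 0.18 SE (0.50 to 1.25), whose edgeR adjusted p of 0.257 did not pass, with an unadjusted p of 0.00012 at rank 6 of all genes. DESeq2 gave that last comparison an adjusted p of 0.00898.

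No difference in Cacna1s with the number of Ing4 alleles was detected. Ing4+/- Ing5-/- hearts differed from Ing4+/+ Ing5-/- hearts by a log2 fold change of -0.07 ± 0.17 SE (95% interval -0.44 to 0.30), and Ing4+/- Ing5+/+ hearts differed from wild type by -0.05 ± 0.18 SE (-0.43 to 0.34). The interaction of the 2 losses was -0.02 ± 0.25 SE (-0.55 to 0.51, edgeR adjusted p = 0.993). Differences of the sizes inside these intervals are not excluded. With the 8 Ing5-/- hearts set against the 8 Ing5+/+ hearts, a contrast chosen after the values were seen, Cacna1s averaged 9.08 CPM in Ing5-/- hearts and 4.99 CPM in Ing5+/+ hearts. It was the 1 member called there (0.86 ± 0.13 SE, 0.60 to 1.13, edgeR adjusted p = 0.00141), where 1.95% of all genes were called and 0.596% had groups that did not overlap.

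The call against wild type depended on which libraries were fitted. It was kept when each of the 4 Ing4+/+ Ing5-/- hearts or Ing4+/- Ing5+/+ replicate 4 was left out in turn (edgeR adjusted p 0.00555 to 0.044). It was lost when any Ing4+/- Ing5-/- or wild-type heart or Ing4+/- Ing5+/+ replicate 1, 2 or 3 was left out (adjusted p 0.056 to 0.147), though the log2 fold change stayed between 0.72 and 0.86. The call over Ing4+/- Ing5+/+ hearts was kept in 9 of the 16 such fits and lost without Ing4+/- Ing5-/- replicates 1, 2 and 4 or any Ing4+/- Ing5+/+ heart (adjusted p 0.0553 to 0.0872). The averaged contrast was called in 16 of 16 (adjusted p 0.000585 to 0.00592). With litter as a block all these calls were lost, with log2 fold changes of 0.70 against wild type (adjusted p = 0.602), 0.84 over Ing4+/- Ing5+/+ hearts (adjusted p = 0.171) and 0.76 averaged (adjusted p = 0.257). The cardiomyocyte marker level as a covariate also ended the call against wild type (0.67, adjusted p = 0.0735), as did the replicate number as a block (0.80, adjusted p = 0.0569).

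Within litters, the log2 difference of Cacna1s between Ing4+/- Ing5-/- and wild-type hearts was 0.75 in litter 4 and 0.50 in litter 6. Between Ing4+/- Ing5-/- and Ing4+/- Ing5+/+ hearts it was 0.72 in litter 4, 0.64 in litter 6 and 1.31 in litter 7. These 5 values use 3 Ing4+/- Ing5-/- hearts, and their sign follows from the groups that did not overlap, so they add sizes only. In litter 1 the Ing4+/- Ing5-/- heart at 8.71 CPM lay between its Ing4+/+ Ing5-/- littermates at 13.3 and 7.01 CPM, a difference of -0.22 from their mean. In litter 7 the difference from the 1 Ing4+/+ Ing5-/- littermate was 0.50.

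**Figure D3:**
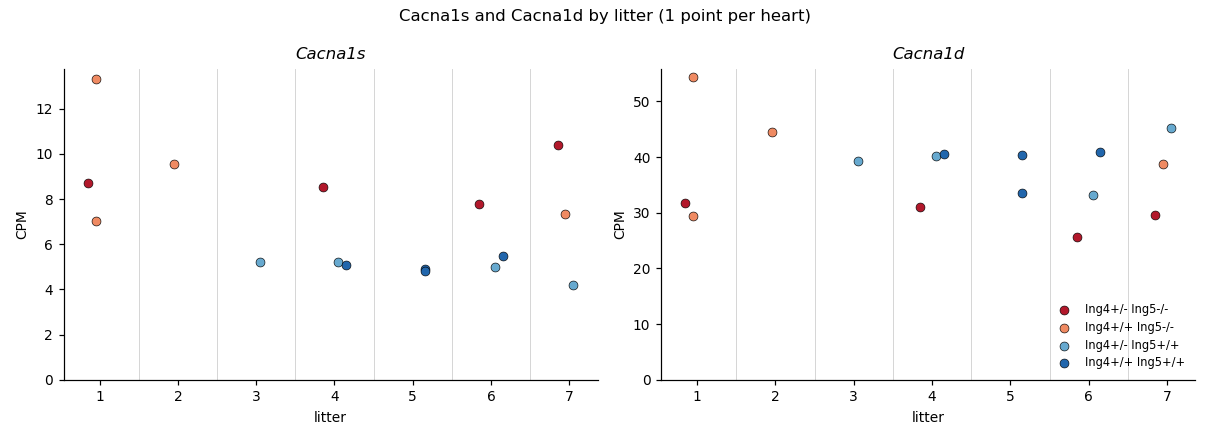
Cacna1s and Cacna1d in CPM for each heart, arranged by litter 1 to 7 and coloured by genotype. In litters 4, 6 and 7 each Ing4+/- Ing5-/- heart lies above its Ing4+/- Ing5+/+ littermate for Cacna1s and below it for Cacna1d.

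An antisense gene, Gm37759, overlaps 20% of the exon bases of Cacna1s on the opposite strand and is not counted in the table. The library kit keeps strand, and the sources used here do not say whether the counting used it. Of 25 other tested genes that start within 1 Mb of Cacna1s, 0 were called higher and 1 lower against wild type (Shisa4, -0.53, edgeR adjusted p = 0.0429). Of the 139 tested genes between Ing5 and Cacna1s, 0 were called higher and 2 lower, where 0.843% of all genes were called. In the averaged contrast, with 1.95% of all genes called, 1 of the 139 was higher and 2 were lower. Of the 25, 1 was lower there (Shisa4, -0.40, edgeR adjusted p = 0.0169). What part the shared chromosome has in the Cacna1s result was not tested.

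Skeletal muscle markers were read beside Cacna1s. The 14 listed markers summed to between 49.0 and 58.9 CPM in Ing4+/- Ing5-/- hearts, between 44.9 and 65.8 CPM in Ing4+/+ Ing5-/- hearts, between 43.6 and 47.6 CPM in Ing4+/- Ing5+/+ hearts and between 49.5 and 53.9 CPM in wild-type hearts. The defining muscle regulators were at or near 0 in every heart, with at most 4 reads of Myod1, 23 of Myf5, 6 of Myf6 and 5 of Myog, and Mymk was at 0 in all 16. Of the 5 skeletal markers tested, 0 were called against wild type and 1, Tnnt3, was called over Ing4+/- Ing5+/+ hearts, with median log2 fold changes of 0.09 and 0.30. Against wild type 3 of the 5 had a positive log2 fold change and 2 a negative one. Over Ing4+/- Ing5+/+ hearts 4 were positive and 1 negative. Mylpf had 26.7, 19.3, 23.7 and 20.4 CPM in Ing4+/- Ing5-/- hearts and 27.9, 31.0, 26.3 and 26.6 CPM in wild-type hearts.

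Tnnt3, the fast skeletal troponin T, had 15.04, 17.2, 19.98 and 13.1 CPM in Ing4+/- Ing5-/- hearts and 9.75, 8.67, 15.3 and 9.10 CPM in Ing4+/+ Ing5-/- hearts. It had 10.7, 9.69, 7.997 and 6.45 CPM in Ing4+/- Ing5+/+ hearts and 9.74, 8.66, 9.06 and 10.1 CPM in wild-type hearts. The Ing4+/- Ing5-/- hearts lay above all Ing5+/+ hearts. The log2 fold change was 0.90 ± 0.19 SE over Ing4+/- Ing5+/+ hearts (edgeR adjusted p = 0.0242) and 0.80 against wild type, which missed the threshold (adjusted p = 0.0502). The value against wild type passed in 6 of 8 other settings, among them the DESeq2 Wald test (adjusted p = 0.00311), and not with litter or replicate as a block (adjusted p = 0.116 and 0.0569). Without the 3 libraries the call over Ing4+/- Ing5+/+ hearts was lost (0.76, edgeR adjusted p = 0.0871). In the averaged contrast Tnnt3 was called (0.54, edgeR adjusted p = 0.0373), and in 5 of 16 fits without 1 library. Ryr1, the skeletal release channel, stayed between 0 and 2.18 CPM in all hearts. What part skeletal muscle RNA has in the Cacna1s result was not tested.

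Cacna1c encodes the main L-type pore of the working heart muscle cell (chr6:118587240-119197384, Entrez 12288, 5.84 Mb from Ing4). It had 121, 128, 122 and 120 CPM in Ing4+/- Ing5-/- hearts and 118, 133, 144 and 124 CPM in Ing4+/+ Ing5-/- hearts. Ing4+/- Ing5+/+ hearts had 118, 115, 115 and 129 CPM and wild-type hearts 128, 119, 127 and 140 CPM. All groups overlapped, and the log2 fold change of Ing4+/- Ing5-/- hearts against wild type was -0.07 ± 0.07 SE (edgeR adjusted p = 0.785). In Ing4+/- Ing5+/+ hearts, where the nearby Ing4 gene lacks 1 allele, it was -0.11 ± 0.07 SE against wild type (adjusted p = 0.956).

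Cacna1d encodes the L-type pore that opens at lower voltage and serves the sinus node (chr14:30039941-30491156, Entrez 12289). It had 31.8, 31.1, 25.6 and 29.6 CPM in Ing4+/- Ing5-/- hearts. The Ing4+/+ Ing5-/- hearts had 54.5, 29.5, 44.5 and 38.8 CPM, Ing4+/- Ing5+/+ hearts 39.4, 40.2, 33.2 and 45.2 CPM, and wild-type hearts 40.5, 33.5, 40.5 and 40.9 CPM. Every Ing4+/- Ing5-/- heart lay below every wild-type and every Ing4+/- Ing5+/+ heart, while the Ing4+/+ Ing5-/- group spread from within the lowest group to the highest value of all.

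The log2 fold change of Cacna1d in Ing4+/- Ing5-/- hearts was -0.39 ± 0.14 SE against wild type (95% interval -0.69 to -0.09), -0.42 ± 0.14 SE against Ing4+/- Ing5+/+ hearts (-0.72 to -0.12) and -0.50 ± 0.14 SE against Ing4+/+ Ing5-/- hearts. Over all genes none passed, with edgeR adjusted p of 0.268, 0.179 and 0.542, in that order. Against wild type it passed when only the 2 groups were fitted (-0.39, adjusted p = 0.0419) and with the cardiomyocyte marker level as a covariate (-0.54, adjusted p = 0.0406), and in none of the 16 fits without 1 library (adjusted p 0.104 to 0.473). The interaction, -0.53 ± 0.20 SE, had an unadjusted p of 0.0174 and an adjusted p of 0.819. Within litters the difference was -0.38 and -0.67 against wild type in litters 4 and 6, and -0.37, -0.37 and -0.61 against Ing4+/- Ing5+/+ hearts in litters 4, 6 and 7, with the sign again fixed by the groups. Against the 1 Ing4+/+ Ing5-/- littermate of litter 7 it was -0.39. In litter 1 the Ing4+/- Ing5-/- heart at 31.8 CPM lay between its 2 Ing4+/+ Ing5-/- littermates at 54.5 and 29.5 CPM, -0.40 from their mean.

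As a share of the pore subunits' RPKM, Cacna1s made up 3.00% ± 0.333 in Ing4+/- Ing5-/- hearts, 2.90% ± 0.830 in Ing4+/+ Ing5-/- hearts, 1.73% ± 0.133 in Ing4+/- Ing5+/+ hearts and 1.72% ± 0.114 in wild-type hearts (SD, n = 4 each). Cacna1d made up 6.76% ± 0.403, 8.81% ± 1.94, 9.45% ± 1.33 and 8.88% ± 0.245 in the same order. The ratio of Cacna1d to Cacna1c was 0.236 in Ing4+/- Ing5-/- hearts, 0.320 in Ing4+/+ Ing5-/- hearts, 0.324 in Ing4+/- Ing5+/+ hearts and 0.296 in wild-type hearts. These shares and ratios are given as a description.

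**Figure D4:**
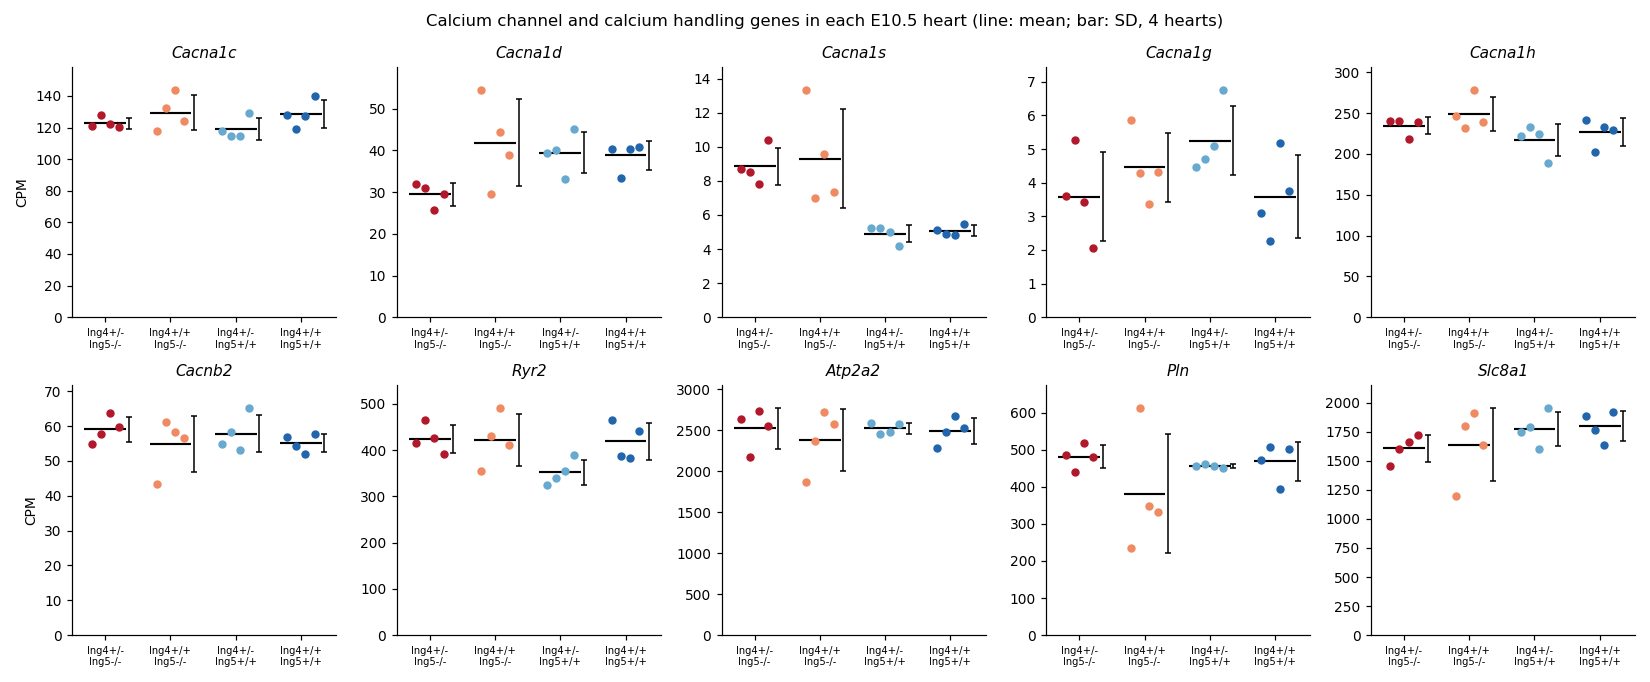
CPM of the 10 calcium genes in each heart, 1 panel per gene, with lines for the genotype mean and bars for the SD of 4 hearts. All Ing5-/- hearts lie at 7.01 CPM or more for Cacna1s and all Ing5+/+ hearts at 5.50 CPM or less, while the groups of most other panels overlap.

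The T-type pores open near the resting potential and feed early pacemaking. Cacna1h (chr17:25374285-25436334, Entrez 58226), the more abundant of them, had 241, 240, 218 and 239 CPM in Ing4+/- Ing5-/- hearts and 246, 232, 278 and 239 CPM in Ing4+/+ Ing5-/- hearts. Ing4+/- Ing5+/+ hearts had 222, 233, 225 and 189 CPM and wild-type hearts 242, 203, 233 and 229 CPM. The groups overlapped, and no comparison called the gene. Its log2 fold change was 0.05 ± 0.08 SE against wild type in Ing4+/- Ing5-/- hearts (edgeR adjusted p = 0.862) and 0.12 ± 0.06 SE in the contrast averaged over Ing4 (adjusted p = 0.271).

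Cacna1g (chr11:94408391-94474400, Entrez 12291) was the member with the lowest RPKM, and was at 2.04 to 5.27 CPM in Ing4+/- Ing5-/- hearts, 3.37 to 5.85 CPM in Ing4+/+ Ing5-/- hearts, 4.47 to 6.75 CPM in Ing4+/- Ing5+/+ hearts and 2.28 to 5.19 CPM in wild-type hearts. The ranges overlapped. Cacna1g had 49 to 180 reads per heart. Its log2 fold change in Ing4+/- Ing5-/- hearts against wild type was -0.0011 ± 0.28 SE (95% interval -0.59 to 0.59). A difference of a size inside that interval is not excluded. Against Ing4+/- Ing5+/+ hearts it was -0.55 ± 0.28 SE (edgeR adjusted p = 0.383), and the interaction was -0.87 ± 0.39 SE (unadjusted p = 0.0392, adjusted p = 0.819).

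Cacnb2 encodes the beta subunit that brings L-type pores to the membrane (chr2:14603861-14988811, Entrez 12296). It ranged between 55.0 and 63.7 CPM in Ing4+/- Ing5-/- hearts, 43.3 and 61.2 CPM in Ing4+/+ Ing5-/- hearts, 53.1 and 65.2 CPM in Ing4+/- Ing5+/+ hearts and 52.0 and 57.7 CPM in wild-type hearts. The groups overlapped, with a log2 fold change of 0.10 ± 0.09 SE against wild type in Ing4+/- Ing5-/- hearts (edgeR adjusted p = 0.749).

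Of the store genes, Ryr2 encodes the cardiac release channel (chr13:11553099-12106945, Entrez 20191). It had 416, 465, 426 and 391 CPM in Ing4+/- Ing5-/- hearts and 356, 432, 491 and 410 CPM in Ing4+/+ Ing5-/- hearts. Ing4+/- Ing5+/+ hearts had 326, 340, 354 and 389 CPM, and wild-type hearts 465, 387, 383 and 440 CPM. The Ing4+/- Ing5+/+ hearts were the lowest group and lay wholly below the Ing4+/- Ing5-/- hearts, while they overlapped with wild type.

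The log2 fold change of Ryr2 was 0.27 ± 0.09 SE in Ing4+/- Ing5-/- against Ing4+/- Ing5+/+ hearts (95% interval 0.07 to 0.47, unadjusted p = 0.0108, edgeR adjusted p = 0.195). In Ing4+/- Ing5+/+ hearts against wild type it was -0.25 ± 0.09 SE (unadjusted p = 0.0164, adjusted p = 0.956). Neither passed. Ing4+/- Ing5-/- hearts differed from wild type by 0.02 ± 0.09 SE (adjusted p = 0.963). Within litters the difference from Ing4+/- Ing5+/+ hearts was 0.45, 0.27 and 0.01 in litters 4, 6 and 7.

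Atp2a2 encodes SERCA2, the pump that refills the cardiac store (chr5:122453513-122502225, Entrez 11938). It lay between 1864 and 2738 CPM over all hearts, both ends of which were in Ing5-/- hearts, and no group separated from another. Its log2 fold change in Ing4+/- Ing5-/- hearts was 0.02 ± 0.10 SE against wild type (95% interval -0.20 to 0.24, edgeR adjusted p = 0.967) and -0.00095 against Ing4+/- Ing5+/+ hearts (adjusted p = 0.999).

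Pln encodes phospholamban, which restrains that pump (chr10:53337686-53345999, Entrez 18821). It had 487, 441, 517 and 481 CPM in Ing4+/- Ing5-/- hearts, and the 4 Ing4+/+ Ing5-/- hearts spread over 236, 612, 348 and 331 CPM. It had 455, 462, 455 and 449 CPM in Ing4+/- Ing5+/+ hearts and 471, 507, 393 and 502 CPM in wild-type hearts. The Ing4+/+ Ing5-/- group held both the lowest and the highest heart, and the groups overlapped. The log2 fold change of Ing4+/- Ing5-/- hearts was 0.04 ± 0.18 SE against wild type (edgeR adjusted p = 0.958) and 0.33 ± 0.18 SE against Ing4+/+ Ing5-/- hearts (adjusted p = 0.768). The ratio of Pln to Atp2a2, both in RPKM, was 0.442 ± 0.0185 in Ing4+/- Ing5-/- hearts, 0.370 ± 0.151 in Ing4+/+ Ing5-/- hearts, 0.417 ± 0.0151 in Ing4+/- Ing5+/+ hearts and 0.437 ± 0.0648 in wild-type hearts (SD, n = 4 each). Gm47644 covers 59.6% of the exon bases of Pln on the opposite strand, so without strand the reads of the 2 genes cannot be told apart.

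Slc8a1 encodes the sodium/calcium exchanger NCX1, which mouse embryos need for their first heartbeats (chr17:81373105-81738387, Entrez 20541). It had 1454, 1599, 1663 and 1721 CPM in Ing4+/- Ing5-/- hearts and 1196, 1803, 1915 and 1639 CPM in Ing4+/+ Ing5-/- hearts. Ing4+/- Ing5+/+ hearts had 1752, 1789, 1601 and 1952 CPM, and wild-type hearts 1884, 1767, 1634 and 1919 CPM. The groups overlapped, with a log2 fold change of -0.16 ± 0.12 SE against wild type in Ing4+/- Ing5-/- hearts (edgeR adjusted p = 0.639).

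Summed over the 10 members, the hearts held 5145 to 5785 CPM in Ing4+/- Ing5-/- hearts, 4134 to 6019 CPM in Ing4+/+ Ing5-/- hearts, 5328 to 5802 CPM in Ing4+/- Ing5+/+ hearts and 5544 to 5859 CPM in wild-type hearts. The median log2 fold change of the 10 was 0.02 in Ing4+/- Ing5-/- hearts against wild type, where the median of all 15785 genes was 0.0027, and 0.04 against Ing4+/- Ing5+/+ hearts, where that of all genes was -0.0013.

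The rest of the calcium pathway was read from 5 further lists, chosen with earlier results of these data known. Of all genes tested, 0.843% were called in Ing4+/- Ing5-/- hearts against wild type and 1.1% against Ing4+/- Ing5+/+ hearts. Against wild type, 0 of 13 tested other channel subunits, 0 of 20 store release genes, 0 of 20 calmodulin and kinase genes and 0 of 17 pacemaker genes were called in Ing4+/- Ing5-/- hearts, with median log2 fold changes of 0.01, -0.08, -0.06 and -0.14. Of 20 pump, exchanger and membrane transport genes 1 rose, Atp2a1, and the median was -0.05. Against Ing4+/- Ing5+/+ hearts, 1 of the 13 channel subunits fell (Cacna2d1) and 2 of the 17 pacemaker genes fell (Hcn4 and Kcnj5), while 0 genes of the other 3 lists were called. None of these 4 calls held with litter as a block. The medians were -0.06 for subunits, -0.12 for pacemaker genes, 0.0034 for store release, -0.04 for pumps and -0.08 for calmodulin and kinases. No gene of these lists was called in the other pairs of genotypes. In the averaged contrast, chosen after the values were seen, 1.95% of all genes were called. There Atp2a1 rose (0.89, edgeR adjusted p = 0.0219). Cacna2d1 (-0.35, adjusted p = 0.0186), Hcn4 (-0.50, adjusted p = 0.0243) and Kcnj5 (-0.26, adjusted p = 0.00942) fell. These calls held in 14, 16, 12 and 16 of 16 fits without 1 library, in that order, and in 5, 6, 5 and 6 of 7 other settings.

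Atp2a1, which pumps calcium in fast skeletal muscle, had 34.3, 33.1, 32.7 and 39.0 CPM in Ing4+/- Ing5-/- hearts and 26.9, 8.95, 31.7 and 35.3 CPM in Ing4+/+ Ing5-/- hearts. It had 17.9, 19.7, 12.9 and 18.0 CPM in Ing4+/- Ing5+/+ hearts and 19.0, 11.4, 16.8 and 13.4 CPM in wild-type hearts. Every Ing4+/- Ing5-/- heart lay above every Ing5+/+ heart, whereas Ing4+/+ Ing5-/- replicate 2 had the lowest value of all. The log2 fold change against wild type was 1.20 ± 0.28 SE (edgeR adjusted p = 0.0486), and against Ing4+/- Ing5+/+ hearts it was 1.02 (adjusted p = 0.0847). The call against wild type was kept in 4 of the 16 fits without 1 library, those without 1 Ing4+/+ Ing5-/- heart, and lost without any of the other 12 (adjusted p 0.0565 to 0.184). It was also lost with litter as a block (1.11, adjusted p = 0.503), with the replicate block (adjusted p = 0.0557), with the cardiomyocyte marker covariate (adjusted p = 0.0942) and without the 3 libraries (adjusted p = 0.0575). Rabep2 shares 21.9% of the exon bases of Atp2a1 on the opposite strand, and averaged 24.6 CPM in Ing4+/- Ing5-/- hearts and 23.0 CPM in wild-type hearts (adjusted p = 0.717).

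Hcn4, the pacemaker channel of the sinus node, had 68.5, 38.9, 50.0 and 68.0 CPM in Ing4+/- Ing5-/- hearts and 63.9, 64.4, 85.9 and 88.6 CPM in Ing4+/+ Ing5-/- hearts. Ing4+/- Ing5+/+ hearts had 101, 102, 93.2 and 93.1 CPM and wild-type hearts 87.7, 76.2, 110 and 78.9 CPM. All Ing4+/- Ing5-/- hearts lay below all Ing5+/+ hearts. The log2 fold change was -0.79 ± 0.16 SE against Ing4+/- Ing5+/+ hearts (edgeR adjusted p = 0.0212) and -0.65 against wild type, which did not pass (adjusted p = 0.069).

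Kcnj5, a subunit of the acetylcholine-gated potassium channel, averaged 138 CPM in Ing4+/- Ing5-/- and 176 CPM in Ing4+/- Ing5+/+ hearts (-0.35 ± 0.07 SE, edgeR adjusted p = 0.0242). It had 129, 140, 159 and 160 CPM in Ing4+/+ Ing5-/- hearts and 163, 162, 173 and 171 CPM in wild-type hearts. All Ing5-/- hearts lay below all Ing5+/+ hearts for Kcnj5, where 0.596% of all genes separated in either direction. Cacna2d1, the accessory subunit that carries pores to the membrane, averaged 38.7 CPM in Ing4+/- Ing5-/- and 53.2 CPM in Ing4+/- Ing5+/+ hearts (-0.46 ± 0.10 SE, adjusted p = 0.0399). In both genes the 4 Ing4+/- Ing5-/- hearts lay below the 4 Ing4+/- Ing5+/+ hearts. These calls over Ing4+/- Ing5+/+ hearts depended on the libraries too. The call was lost for Hcn4 without Ing4+/- Ing5-/- replicate 2 or 3 or Ing4+/- Ing5+/+ replicate 1, 2 or 4 (edgeR adjusted p 0.0523 to 0.0782). It was lost for Kcnj5 without Ing4+/- Ing5-/- replicate 2 or 3 or any Ing4+/- Ing5+/+ heart (0.0506 to 0.098), and for Tnnt3 without Ing4+/- Ing5-/- replicate 2 or 3 or Ing4+/- Ing5+/+ replicate 2, 3 or 4 (0.0521 to 0.0869). For Cacna2d1 it was lost without any heart of either genotype and without wild-type replicate 1 or 2 (0.0544 to 0.123). With litter as a block the calls of Hcn4 (-0.84, adjusted p = 0.0832), Kcnj5 (-0.37, adjusted p = 0.086) and Cacna2d1 (-0.46, adjusted p = 0.178) were lost, while that of Tnnt3 was kept (1.07, adjusted p = 0.00535). Cacna2d1 was also lost with the replicate block (adjusted p = 0.0613) and without the 3 libraries (adjusted p = 0.109).

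**Figure D5:**
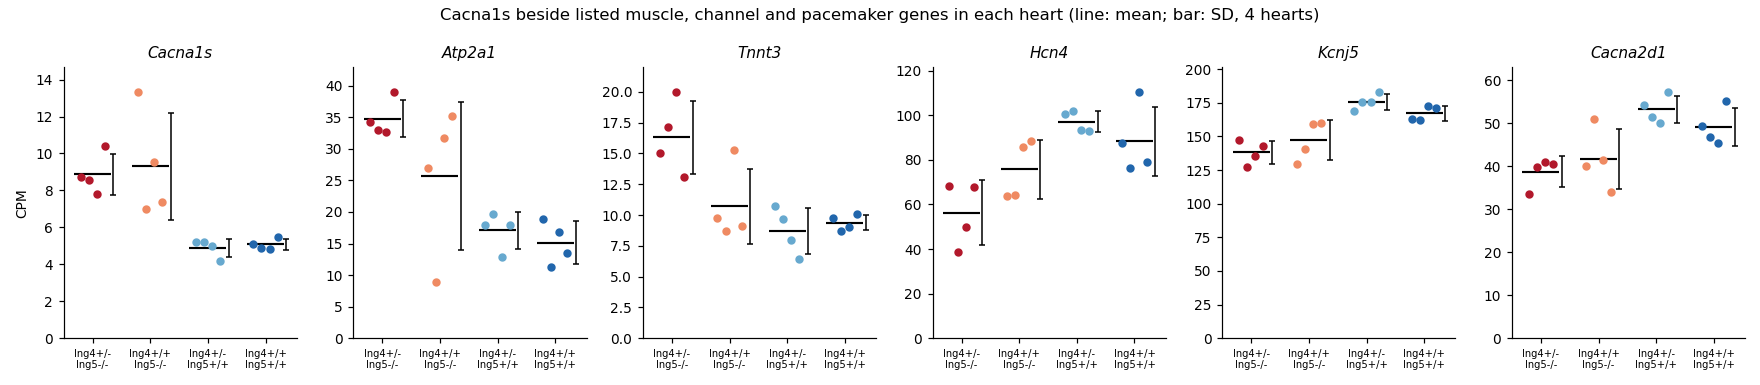
CPM per heart of Cacna1s and of 5 genes outside the list, Atp2a1, Tnnt3, Hcn4, Kcnj5 and Cacna2d1, by genotype. The Ing4+/- Ing5-/- hearts lie above all Ing5+/+ hearts for the first 3 genes, and below them for Hcn4, Kcnj5 and Cacna2d1.

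Markers of other cells moved with the genotypes too. They are read beside the 0.843% of all genes called in Ing4+/- Ing5-/- hearts against wild type and the 1.1% against Ing4+/- Ing5+/+ hearts. In Ing4+/- Ing5-/- hearts against wild type, 8 of 10 macrophage markers rose (median log2 fold change 2.98), among them Laptm5 at 18.6 CPM in Ing4+/- Ing5-/- hearts and 7.41 CPM in wild-type hearts. The list had summed levels of 39.4 to 61.8 CPM in Ing4+/- Ing5-/- hearts, 18.2 to 52.6 CPM in Ing4+/+ Ing5-/- hearts, 13.9 to 20.7 CPM in Ing4+/- Ing5+/+ hearts and 9.77 to 15.6 CPM in wild-type hearts. Of 10 epicardial markers 1 rose, the keratin gene Krt19, which averaged 80.3 CPM in Ing4+/- Ing5-/- hearts and 49.1 CPM in wild-type hearts, and 0 of 20 cardiomyocyte, 0 of 9 neuronal, 0 of 10 endothelial and 0 of 10 erythroid markers were called. Their medians were -0.37, -0.15, -0.21, 0.20 and 1.12, in that order. Of the 20 cardiomyocyte markers, 19 had a negative log2 fold change in Ing4+/- Ing5-/- hearts against wild type, as did 7764 of all 15785 genes. In Ing4+/+ Ing5-/- hearts 18 of the 20 were negative against wild type, and in Ing4+/- Ing5+/+ hearts 20. Between Ing4+/- Ing5-/- and Ing4+/- Ing5+/+ hearts 10 were positive and 10 negative. Of the 10 epicardial markers, 2 had a positive log2 fold change against wild type and 8 a negative one. In 6 of the 10 all Ing4+/- Ing5-/- hearts lay below all wild-type hearts, and in 1 above. Over all 15785 genes, 743 lay below and 861 above in this way. Against Ing4+/- Ing5+/+ hearts 2 of 10 macrophage markers (Csf1r and Laptm5) and 1 of 10 epicardial markers (Krt19) rose. The part of these cells in the levels of the calcium genes was not tested.

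The genes whose log2 CPM followed each member most closely over the 16 hearts were taken from 13534 genes of at least 1 CPM on average. For Cacna1s they were Krt8, Egfl7 and Ndrg1, with Pearson's r of 0.92, 0.91 and 0.90. Cacna1d was followed by Itga4, Apip and Tenm3 (0.90, 0.89 and 0.88), and Cacna1c by Golga4, Utrn and Apc (0.80, 0.78 and 0.75). Ryr2 was followed by Syne1 and Vps13d (0.82 and 0.81), Atp2a2 by Adcy5, Fbxw8 and Klhl30 (0.93, 0.92 and 0.91), and Pln by Dennd5a, Acadvl and Mtus2 (0.92, 0.91 and 0.90). Slc8a1 was followed by Hipk3 and Med14 (0.93 and 0.91), Cacnb2 by Ppp1r3b, Asah2 and Prdm16 (0.92, 0.90 and 0.89), Cacna1h by Lins1, Gm10406 and Nxt1 (0.88, 0.85 and 0.85), and Cacna1g by Gtf3c2, Wdr62 and A730017L22Rik (0.84, 0.83 and 0.81).

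Among the members themselves the closest pairs were Cacna1c with Ryr2 (r = 0.79) and Cacnb2 with Slc8a1 (r = 0.76), and the most opposed were Cacna1d with Pln (r = -0.72) and Cacna1s with Slc8a1 (r = -0.60). Atp2a2 and Pln followed the mean level of the cardiomyocyte markers (r = 0.71 and 0.70). The hearts share genotype, litter, library depth and cell makeup, so these values describe the 16 hearts and carry no test.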

How the data were processed

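Counts of reads per gene were deposited by the authors for 16 libraries, and the 16 single-sample tables held the same values as the series table. Per the labels' protocols, RNA was extracted with a Micro RNA kit and libraries were made with a stranded kit. Per the submitters' processing notes, bcl2fastq and featureCounts were used on mm10; their versions, the aligner and the strand setting are not stated there. The deposited gene lengths were used for RPKM. Entrez identifiers were matched to RefSeq symbols and GRCm38 positions (25275 of 27179, 93.0%), and overlaps were read from GENCODE.

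Genes were kept with edgeR 4.0.16's filterByExpr (15785 genes, 99.96% of reads). All libraries were fitted as 4 group means with TMM scaling (factors 0.967 to 1.08) and the quasi-likelihood test in R 4.3.3, with Benjamini-Hochberg adjustment over all genes tested and a threshold of 0.05. SE is the log2 fold change over the root of its F value. CPM used TMM-scaled totals, and correlations used log2 CPM with a prior count of 2. The procedure was tested on simulated data. Replicates of a group differed by more than counting noise (chi-square per degree of freedom 6.68 to 108 over 24 pairs), so none was taken as a duplicate. Alternatives were DESeq2 1.42.0 (size factors and Wald test), no filter, a replicate block, a litter block, a cardiomyocyte marker covariate, fits of 2 groups, and fits without libraries. The contrast averaged over Ing4 was added after the values were seen. The members and lists were chosen with earlier results of these data known. The named genes are all members, up to 4 called genes by smallest p in each further list (fewer are printed), and 3 genes most like each member, of which 2 are not reported here. Promoter windows were found for 7 of 10 members, and bases before the outermost RefSeq or GENCODE start were used.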

Additional observations from a re-analysis of the deposited data

Results flagged for a closer look

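Values of 15 genes were checked in each genotype for a heart far from the other 3, and 4 of 60 groups (6.67%) had one, where chance alone gives about 1 in 20. Cacna1d in wild-type replicate 2 was at 33.5 CPM and the other wild-type hearts between 40.5 and 40.9 CPM; it is the wild-type heart nearest to the Ing4+/- Ing5-/- hearts. Cacna1h in Ing4+/- Ing5-/- replicate 3 was at 218 CPM and the others of its genotype between 239 and 241 CPM. Tnnt3 in Ing4+/+ Ing5-/- replicate 3 was at 15.3 CPM, the others between 8.67 and 9.75 CPM. Cacna2d1 in Ing4+/- Ing5-/- replicate 1 was at 33.4 CPM, the others between 39.9 and 41.0 CPM. None of the 10 members passed the test of the interaction of the 2 losses, with 0.819 the smallest edgeR adjusted p.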

How the results depend on the processing

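Values after gene names are log2 fold changes. No call among the members held with litter as a block, and none of the values below that changed sign was called. The cause of these moves was not tested. The litter block and the fits of fewer libraries leave fewer degrees of freedom, and what part this had was not tested either. Of 24 pairs of hearts with the same replicate number, 5 had deviations correlated over 0.1 (median 0.020). Among 11 pairs from the same litter, 3 did (median 0.024). Pairs sharing neither were not set beside them, so this check cannot decide whether number or litter pairs the hearts. The replicate block left 0 members called in Ing4+/- Ing5-/- against wild-type hearts, with Cacna1s at an edgeR adjusted p of 0.0569 and Cacna1g at a log2 fold change of 0.0021. It changed no other call of a member, and gave interactions of 0.0029 for Cacna1s and 0.0036 for Slc8a1. With DESeq2 size factors Cacna1g was 0.00035 against wild type and Atp2a2 0.0020 against Ing4+/- Ing5+/+ hearts. The DESeq2 Wald test called 325 genes against wild type, 486 against Ing4+/- Ing5+/+, 19 against Ing4+/+ Ing5-/-, 43 in Ing4+/+ Ing5-/- against wild type (1 member, Cacna1s), 3 in Ing4+/- Ing5+/+ against wild type, 7 for the interaction and 706 averaged, with Cacna1g at 0.00021 against wild type and Atp2a2 at 0.0020 against Ing4+/- Ing5+/+. Without a filter 3 genes were called in Ing4+/+ Ing5-/- against wild type.

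With litter as a block, Ing4+/- Ing5-/- against wild-type hearts gave 0 members and 13 genes, with Cacna1g at 0.089, Ryr2 at -0.080 and Pln at -0.035. Against Ing4+/- Ing5+/+ hearts it gave 0 members and 65 genes, with Atp2a2 at 0.020, and against Ing4+/+ Ing5-/- hearts 0 genes, with Cacna1s at 0.031 and Slc8a1 at 0.030. Ing4+/+ Ing5-/- against wild type gave Cacna1c -0.13, Cacna1d -0.22 and Ryr2 -0.15, and Ing4+/- Ing5+/+ against wild type Cacna1d -0.11. The interaction gave Cacna1s 0.17, Cacna1h 0.053 and Slc8a1 0.17, and the averaged contrast 0 members, 1 gene, Cacna1c -0.043 and Cacnb2 -0.023.

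With the cardiomyocyte covariate 299 genes were called against Ing4+/- Ing5+/+. Cacna1s was 0.0087 and Ryr2 -0.0025 against Ing4+/+ Ing5-/-. Ing4+/+ Ing5-/- against wild type gave Cacna1d -0.11, Cacna1g -0.0038, Cacnb2 0.097 and Atp2a2 0.090, and Ing4+/- Ing5+/+ against wild type Cacna1d -0.13, Pln 0.21 and Slc8a1 0.094. The interaction gave Cacna1c -0.0061, Cacna1s 0.20, Cacnb2 -0.072 and Atp2a2 -0.10, and the averaged contrast Atp2a2 0.039 and Pln 0.021. Against wild type 1 member was called with this covariate as without it, but Cacna1d in place of Cacna1s.

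Without the 3 libraries, 290 genes were called against wild type, with Ryr2 at -0.032. Atp2a2 was 0.073 against Ing4+/- Ing5+/+, and Cacna1s 0.17 and Ryr2 -0.12 against Ing4+/+ Ing5-/-. Ing4+/+ Ing5-/- against wild type gave Cacna1d -0.048, Cacnb2 0.088 and Atp2a2 0.037, Ing4+/- Ing5+/+ against wild type 2 genes, Cacna1d -0.047 and Cacna1s 0.018, the interaction Cacna1s 0.15 and the averaged contrast Atp2a2 0.055. Fits of only 2 groups called 2 members and 420 genes against wild type, 0 genes against Ing4+/+ Ing5-/- and 1 gene in Ing4+/- Ing5+/+ against wild type, with Atp2a2 at 0.0015 against Ing4+/- Ing5+/+.

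Leaving out 1 library at a time, Ing4+/- Ing5-/- against wild-type hearts gave 0 to 1 members, Atp2a2 -0.024 to 0.084, 39 to 318 genes, Ryr2 -0.028 to 0.073, Cacna1g -0.24 to 0.24 and Pln -0.035 to 0.080. Against Ing4+/- Ing5+/+ hearts the fits gave 0 to 1 members, 67 to 419 genes, Atp2a2 -0.042 to 0.068 and Cacnb2 -0.0082 to 0.092. Against Ing4+/+ Ing5-/- hearts they gave 1 to 2 genes, Slc8a1 -0.15 to 0.057, Ryr2 -0.067 to 0.088, Cacna1s -0.18 to 0.15 and Atp2a2 -0.022 to 0.15. Ing4+/+ Ing5-/- against wild type gave Cacna1d -0.045 to 0.24, Cacnb2 -0.065 to 0.091, Atp2a2 -0.13 to 0.040, 0 to 5 genes, Cacna1c -0.042 to 0.055 and Ryr2 -0.069 to 0.086. Ing4+/- Ing5+/+ against wild type gave Slc8a1 -0.071 to 0.024, 0 to 1 genes, Cacna1d -0.045 to 0.099, Cacna1s -0.080 to 0.021, Cacna1h -0.11 to 0.0025 and Atp2a2 -0.020 to 0.054. The interaction gave Slc8a1 -0.13 to 0.079, Cacna1s -0.14 to 0.20, Cacna1h -0.087 to 0.032, 0 to 1 genes, Cacna1c -0.011 to 0.086, Cacnb2 -0.060 to 0.10 and Atp2a2 -0.040 to 0.14. The averaged contrast gave Atp2a2 -0.067 to 0.020, Cacnb2 -0.017 to 0.061, 191 to 453 genes and Cacna1g -0.24 to 0.0033. Cacna1g and Cacna1s had the fewest reads, as few as 49 and 96 in a heart. What part read depth had in their intervals was not tested.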
